A study of Mus musculus with 20 samples.

Results

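Astrocytes sorted 7 days after lateral fluid percussion injury (FPI), a model of traumatic brain injury in which a pulse of fluid strikes the exposed dura, were compared with astrocytes sorted 7 days after a sham procedure. The comparison used the 5 FPI and the 5 sham libraries that carry the astrocyte label, 10 of the 20 libraries in the series, and the other 10 libraries came from microglia. All mice were male, 3 to 4 months old, of the strain given as C57BL/6 in the labels and as C57BL/6J in the study's methods, with no transgene or drug. Sham mice had the same craniectomy, anesthesia and connection to the device, and the pulse was withheld. The left forebrain, on the side of the surgery, was dissociated with papain, and cells were sorted with antibodies against ACSA-2, an epitope of the sodium pump subunit Atp1b2, and against CD11b and CD45, which mark microglia and other leukocytes. According to the study's methods each library came from a single animal. However, the submitted name of an FPI library, described below, repeats the animal number of another FPI library. Whether all 5 FPI libraries came from different animals could not be checked. The p-values below treat every library as a separate animal. Only if that holds do they reflect the spread between animals together with that of sorting and library preparation.

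Astrocytes take up glutamate and potassium, supply cholesterol to neurons and contact blood vessels. After injury they become reactive, a state recognized by more of the intermediate filament proteins Gfap and Vim and by secreted acute phase proteins such as Serpina3n. Reactive astrocytes also respond to type I interferon, which acts through the receptor pair Ifnar1 and Ifnar2 and through factors such as Stat2 and Irf9 to switch on antiviral genes. Such genes were grouped here into lists, and each list is described by the direction of its members.

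The sham libraries held 7998479 to 10917112 counts and the FPI libraries 6470553 to 10194999. Values are given as CPM, the counts of a gene brought to a common library size with the scaling factors of edgeR, and comparisons are made between libraries for the same gene, since CPM are not corrected for gene length. Of 22690 genes with a count, 13741 passed the filter on low counts and were tested. The astrocyte identity list summed to 15106 to 45451 CPM in sham libraries (median 36467) and 16773 to 44120 CPM in FPI libraries (median 27252). Other cell types were present as well. Oligodendrocyte markers summed to 2492 to 26030 CPM in sham and 5001 to 16012 CPM in FPI libraries, and in sham library 4 their 26030 CPM exceeded the astrocyte sum of 15106 CPM. Markers of mural cells and fibroblasts, which surround blood vessels, ranged from 1391 to 7433 CPM in sham and from 473 to 10481 CPM in FPI libraries. FPI library 1 also carried the largest share of mitochondrially encoded mRNA, 1.90% against 0.768% to 1.12% in the other 9 libraries. The submitted name of FPI library 5 has the animal number of FPI library 2 and the letter otherwise given to microglia, while its title and cell type label are those of an astrocyte library. Its astrocyte sum was 20243 CPM and its microglia marker sum 424 CPM, so it was kept as labelled. In sorted bulk RNA, fewer cells of a type and less RNA per cell cannot be told apart.

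**Figure D1:**
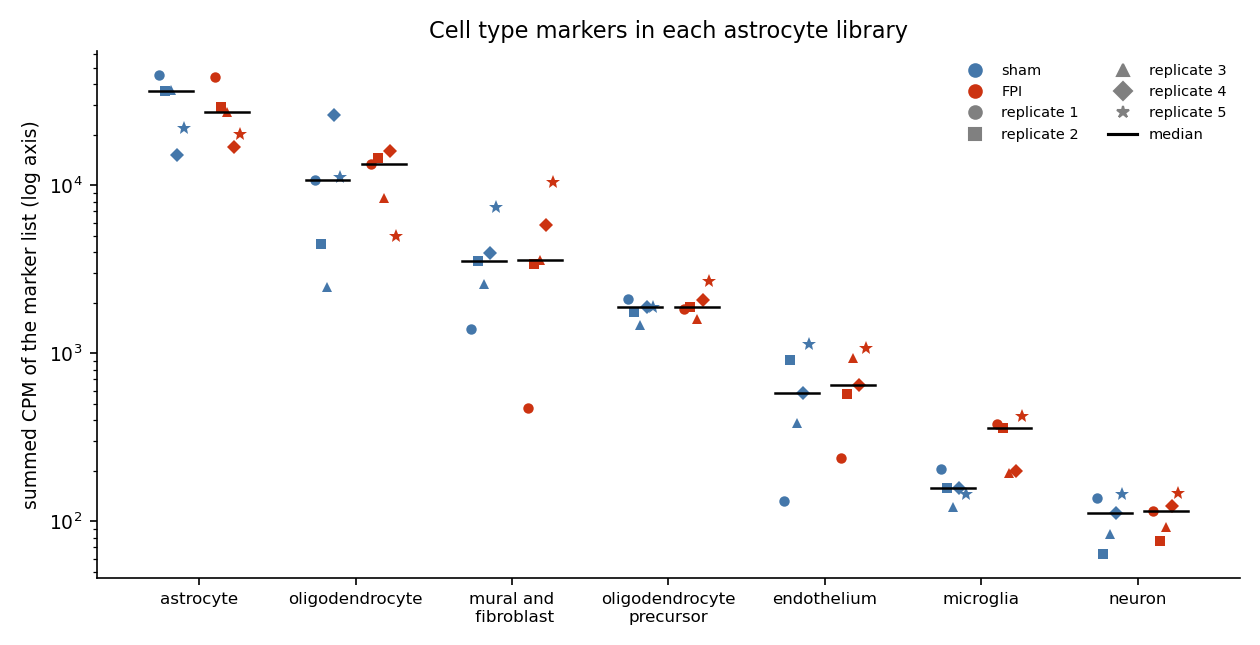
Summed CPM of each marker list on a log axis, with 1 point per astrocyte library, sham and FPI. Microglia markers lie at 121 to 205 CPM in the sham libraries and 195 to 424 CPM in the FPI libraries, and the median of each group is drawn as a line. Oligodendrocyte and mural markers vary widely within both groups, and libraries 4 and 5 have the lowest astrocyte sums in both.

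Across all genes, few single genes separated the groups, and most of those that leaned apart were higher after FPI. The threshold for a call was an edgeR adjusted p (Benjamini-Hochberg) below 0.1 together with a log2 fold change beyond 0.6 in either direction. By this rule 1 gene was called higher (0.00728% of the genes tested) and 0 were called lower (0%). At an unadjusted p below 0.05, 216 genes were higher (1.57%) and 103 were lower (0.75%), and by DESeq2 39 genes were called higher (0.217%). The log2 fold changes of all genes had a median of -0.01 and an SD of 0.37. The tail was uneven. Of the 294 genes with an absolute log2 fold change above 1, 240 were higher after FPI and 54 lower, and above 2 the split was 31 to 1. All 5 FPI libraries lay above all 5 sham libraries for 67 genes (0.488%) and below them for 26 (0.189%).

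The called gene was Ctss, the lysosomal protease cathepsin S (chr3:95526786-95556403, GRCm38). Its CPM was 0.520, 0.420, 0.622, 1.81 and 2.39 in sham libraries 1 to 5 and 37.3, 29.7, 6.46, 17.6 and 40.6 in FPI libraries 1 to 5. Every FPI library was above every sham library, with FPI library 3 the lowest of its group. The log2 fold change was 4.52 (SE 0.60), and edgeR gave a Benjamini-Hochberg adjusted p of 0.0798. Ctss is far more abundant in microglia, where its mean was 4830 CPM after sham and 6235 CPM after FPI, and it is taken up again with the other microglial genes at the end. Leaving out 1 library at a time kept the call in 3 of 10 fits, those without FPI library 1, FPI library 3 or sham library 5.

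Genes of the reactive state had a positive fold change in every pan-reactive member tested. None was called by edgeR, while DESeq2 called Gfap, Serpina3n and Vim (Benjamini-Hochberg adjusted p of 9.07e-06, 2.41e-05 and 0.0978). The pan-reactive list holds genes that, per the study, rise in astrocytes of both a neuroinflammation and an ischemic stroke model. It has 13 members, and all 13 had a higher mean CPM after FPI. Of the 11 tested, 6 were higher at an unadjusted p below 0.05, 5 had groups that did not overlap, and the median log2 fold change was 0.88, against -0.01 over all genes. Over all genes tested, 1.57% were higher at that p and 0.488% had all FPI libraries above all sham libraries. These shares are the background for the later lists too. Library by library the list did not separate the groups fully, since its median level was higher in sham library 5 than in FPI libraries 1 and 2. The median was 1.04 from libraries 1 to 3 of each group alone and 0.70 from libraries 4 and 5, and it ran from 0.71 to 1.24 over the alternative analyses. With the microglia marker covariate 3 members were higher at an unadjusted p below 0.05. In this and the later lists, members that pass the filter only through their FPI values could not have come out lower. Such counts therefore describe a list and are no test of it.

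Gfap, the intermediate filament protein that defines reactive astrocytes, measured 145, 178, 147, 201 and 406 CPM in sham libraries 1 to 5 and 734, 843, 865, 513 and 1296 CPM in FPI libraries 1 to 5. The groups did not overlap, and sham library 5 stood apart from the other sham libraries. The means were 215 ± 109 and 849.9 ± 285 CPM (SD, n = 5 each), and the fit gave a log2 fold change of 1.98 (SE 0.34) and an edgeR Benjamini-Hochberg adjusted p of 0.151. Serpina3n, a secreted protease inhibitor, measured 19.2, 9.06, 11.9, 32.8 and 37.3 CPM after sham and 83.1, 119, 69.4, 95.6 and 201 CPM after FPI. Again every FPI library was above every sham library, by a log2 fold change of 2.37 (SE 0.42) and an edgeR Benjamini-Hochberg adjusted p of 0.161. The files list Serpina3n beside several near-identical neighbors, so its count may hold reads from these.

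Vim, a second filament gene, overlapped between the groups. It measured 68.3, 124, 84.9, 106 and 205 CPM after sham and 209, 301, 234, 189 and 456 CPM after FPI. Here sham library 5 exceeded FPI library 4, and the log2 fold change was 1.24 (SE 0.32, edgeR Benjamini-Hochberg adjusted p = 0.999). Cd44, a hyaluronan receptor, did not overlap, at 5.50 to 14.1 CPM after sham and 14.4 to 23.1 CPM after FPI (log2 fold change 0.88, SE 0.27). Ptx3, a secreted pattern recognition protein from the list of genes linked to ischemia, measured 0.0839 to 1.31 CPM after sham and 1.93 to 3.54 CPM after FPI, and 23 sham counts stood against 111 FPI counts. The acute phase gene Lcn2 was too low to be tested, with 13 counts over the sham libraries and 112 over the FPI libraries.

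The lists often used to split reactive astrocytes into an inflammatory and an ischemic form leaned the same way. Of the inflammatory (A1) list, 10 of 11 tested members had a positive fold change, 5 were higher at an unadjusted p below 0.05 and the median log2 fold change was 0.89. Without FPI library 5 only 1 was higher at that p and the median was 0.49. The number was 2 without FPI library 2 or sham library 4 or with FPI libraries 2 and 5 summed, 3 without FPI library 4, sham library 1 or sham library 3, and 0 with the microglia marker covariate. Of the ischemic (A2) list, 6 of 12 members were tested, 5 were positive, 2 were higher at that p, Ptx3 and Cd109, and the median was 0.75 (0.47 without FPI library 5 and 1.40 without sham library 5). The A1 members at that p were Psmb8, Iigp1, H2-T23, Fkbp5 and Serping1. Of these, Psmb8, Iigp1 and H2-T23 are interferon-inducible, and Psmb8, H2-T23 and Fkbp5 were microglia-abundant by the rule given at the end. Among 23 genes of the cytoskeleton and injury response 22 were positive, with a median of 0.38, and Gfap, Vim and the calcium-binding protein gene S100a6 (log2 fold change 0.79) were higher at an unadjusted p below 0.05. Without FPI library 5 the median of this list was 0.14 with 17 of 23 positive, and without sham library 5 it was 0.58.

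**Figure D2:**
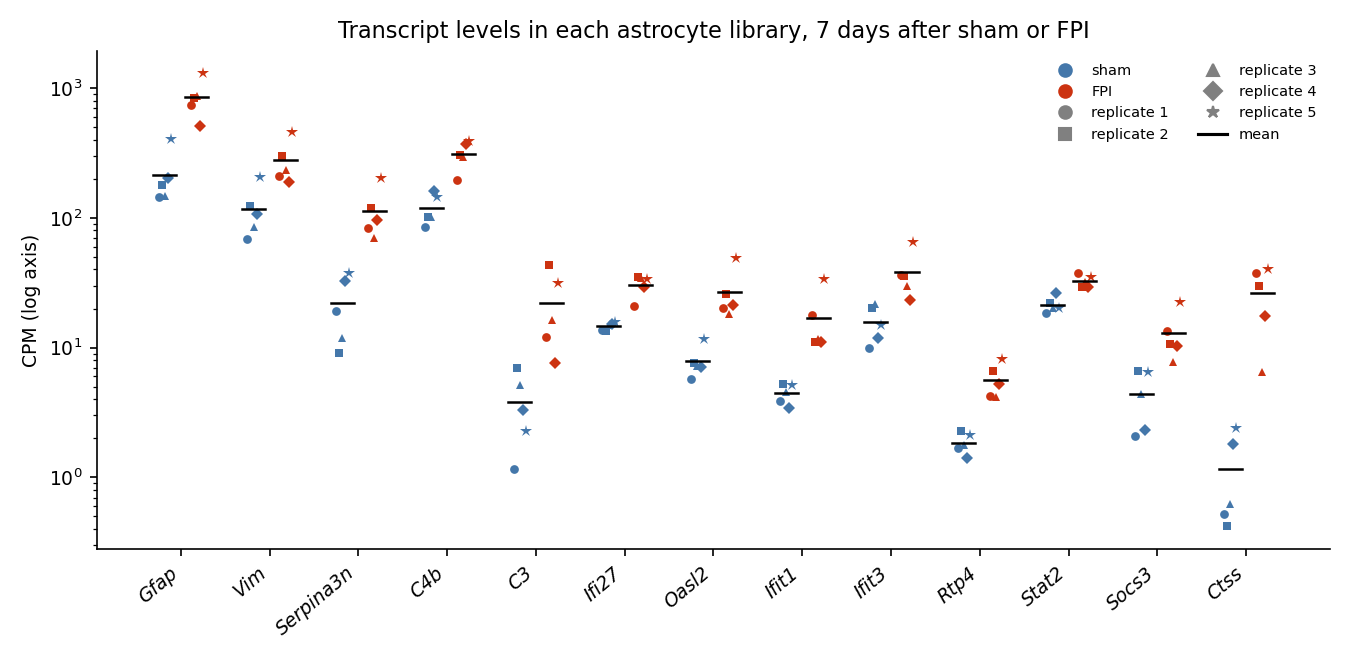
CPM of selected genes on a log axis, with 1 point per astrocyte library and a line at each group's mean. For Gfap, Serpina3n, C4b, Ifi27 and Oasl2 the 5 FPI points lie above the 5 sham points, and sham library 5 is the highest sham point for Gfap at 406 CPM.

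The interferon response was the list with the most members that leaned higher. It holds 66 interferon-stimulated genes, of which 65 had a higher mean CPM after FPI. Of the 56 tested, 55 had a positive fold change, beside 49.2% of all genes. At an unadjusted p below 0.05, 27 were higher and 0 lower, beside 1.57% and 0.75% of all genes. For 10 members all FPI libraries lay above all sham libraries, beside 0.488% of all genes. None was called by edgeR, while DESeq2 called Ifi27, Oasl2, Ifit1, Ifit3, Rtp4 and Usp18, with Benjamini-Hochberg adjusted p of 0.000407, 0.000155, 0.000339, 0.0575, 0.00662 and 0.0474. The median log2 fold change was 0.85, with 0.77 from libraries 1 to 3 and 0.84 from libraries 4 and 5, and it ran from 0.66 to 0.98 over the alternative analyses. Summed over the list, sham libraries held 610 to 845 CPM and FPI libraries 912 to 1629 CPM, so the sums did not overlap.

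Several promoters of this list carry the interferon-stimulated response element (ISRE), the site bound by the complex that holds Stat2 and Irf9. The letters GAAA, followed by any 2 bases and GAAA again, were searched on both strands in the 250 bases before the RefSeq start of each gene (GRCm38.p6). They were found in 18 of the 50 list members with a promoter entry (36%) and in 936 of all 27025 genes with one (3.46%). The windows of 4 members whose FPI libraries all lay above the sham libraries are shown 5′ to 3′ on the strand of the gene, with matches in either orientation in capitals. A match describes the letters and not binding. In Irgm1 the 2 matches overlap.
Ifit1, chr19:34640770-34640828, + strand: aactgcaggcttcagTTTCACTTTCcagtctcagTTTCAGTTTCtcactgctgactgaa
Ifit3, chr19:34583358-34583431, + strand: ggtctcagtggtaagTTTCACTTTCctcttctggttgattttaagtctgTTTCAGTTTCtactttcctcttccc
Stat2, chr10:128270261-128270300, + strand: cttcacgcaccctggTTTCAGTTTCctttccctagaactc
Irgm1, chr11:48871421-48871465, - strand: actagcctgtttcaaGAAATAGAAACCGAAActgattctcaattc

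The genes of the interferon receptors had similar means in both groups, and these 4 genes were chosen after their values were seen. Ifnar1 measured 67.1 ± 9.67 CPM after sham and 59.1 ± 2.92 CPM after FPI (SD, n = 5 each), a log2 fold change of -0.18 (SE 0.14). Ifnar2 measured 21.4 ± 4.77 and 21.1 ± 5.67 CPM, and the receptors of interferon gamma, Ifngr1 and Ifngr2, measured 46.0 against 45.9 CPM and 10.9 against 11.7 CPM.

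Of the factors downstream of the receptor, Stat2 separated the groups. It measured 18.3, 22.2, 20.1, 26.2 and 20.2 CPM in sham libraries 1 to 5 and 37.5, 29.1, 31.9, 29.2 and 35.2 CPM in FPI libraries 1 to 5. The groups did not overlap, the log2 fold change was 0.60 (SE 0.15) and the edgeR Benjamini-Hochberg adjusted p was 0.999. Irf9, its DNA-binding partner, overlapped, at 9.87 to 17.3 CPM after sham and 14.1 to 40.2 CPM after FPI (log2 fold change 0.95). Irf7, which amplifies the response, was at 0.415 to 4.65 CPM after sham and 4.51 to 22.8 CPM after FPI, with FPI library 5 far above the others.

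Among the targets, Ifi27, a mitochondrial interferon-inducible protein gene, had the tightest sham group. It measured 13.8, 13.5, 15, 15.2 and 15.8 CPM after sham and 20.8, 34.7, 34.3, 29.2 and 33.6 CPM after FPI. FPI library 1 was the lowest of its group and still above every sham library, and the log2 fold change was 1.06 (SE 0.17, edgeR Benjamini-Hochberg adjusted p = 0.151). Oasl2, an antiviral protein of the oligoadenylate synthetase family, measured 5.72, 7.55, 7.26, 7.13 and 11.6 CPM after sham and 20.2, 25.9, 18, 21.3 and 48.8 CPM after FPI. Its groups were apart, with FPI library 5 the highest (log2 fold change 1.77, SE 0.30, edgeR Benjamini-Hochberg adjusted p = 0.151). Ifit1, which binds viral RNA, measured 3.90, 5.29, 4.56, 3.42 and 5.15 CPM after sham and 17.7, 11, 11.7, 11 and 33.6 CPM after FPI. No library of one group fell within the other, and the log2 fold change was 1.92 (SE 0.34, edgeR Benjamini-Hochberg adjusted p = 0.161).

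Among further targets, Ifit3 measured 10.002 to 21.6 CPM after sham and 23.3 to 65.2 CPM after FPI (log2 fold change 1.27, SE 0.30). The Ifit genes are paralogs, so reads may be split between Ifit3 and Ifit3b. Rtp4, a chaperone of membrane receptors, measured 1.41 to 2.27 CPM after sham and 4.15 to 8.19 CPM after FPI (log2 fold change 1.60, SE 0.35). Irgm1, an immunity-related GTPase, measured 10.3 to 14.9 CPM and 18.3 to 35.5 CPM (log2 fold change 0.88, SE 0.22). Usp18, which restrains the interferon receptor, measured 0.260 to 3.27 CPM and 5.49 to 19.3 CPM (log2 fold change 2.19, SE 0.57). All 4 had groups that did not overlap. FPI library 5 was the highest FPI library for Oasl2, Ifit1, Ifit3, Rtp4, Irgm1, Usp18 and Irf7, and without it 18 list members were higher at an unadjusted p below 0.05 and the median log2 fold change was 0.67. With FPI libraries 2 and 5 summed as if from 1 animal, 21 were higher at that p and the median was 0.75.

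Antigen presentation by MHC class I, which interferon induces, leaned the same way with a smaller shift. Of 20 tested members 17 were positive, 6 were higher at an unadjusted p below 0.05 and 3 had groups apart, and the median log2 fold change was 0.42 (0.23 from libraries 1 to 3 and 0.58 from libraries 4 and 5). Without FPI library 2 or FPI library 5, or with both summed, 3 members were higher at that p, without sham library 3 or sham library 4 there were 4, and without sham library 4 the median was 0.26. With the summed microglia markers as a covariate the median was 0.079, with 11 of 20 positive and 1 at that p. Psmb8, a subunit of the immunoproteasome, measured 2.01 to 4.15 CPM after sham and 5.27 to 11.1 CPM after FPI (log2 fold change 1.2). Nlrc5, the transactivator of class I genes, measured 0.130 to 3.21 CPM and 4.42 to 11.5 CPM (log2 fold change 2.05), and the class I gene H2-T22 measured 5.59 to 11.8 CPM and 12 to 20.4 CPM (log2 fold change 0.81). The light chain gene B2m overlapped, at 22.1 to 52.5 CPM and 42.3 to 81.3 CPM. Psmb8, Nlrc5 and B2m were among the 7 of 20 tested members that were microglia-abundant by the rule given at the end. Class I genes are near-identical to each other, so single values for H2 genes are uncertain.

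Complement proteins tag cells and debris for removal, and their genes leaned higher. Of 15 tested, 12 were positive and 6 were higher at an unadjusted p below 0.05, namely C4b, C3, C1qa, C1qb, C1qc and Serping1. The median log2 fold change of 0.65 was 0.21 without FPI library 5 and 1.23 without FPI library 1, and sham libraries 2, 4 and 5 moved it to between 0.97 and 1.22 when left out. DESeq2 called C4b, C3 and the C1q genes. C4b, a component of the classical pathway, measured 85.2, 101, 101, 160.4 and 145 CPM in sham libraries 1 to 5 and 196, 302, 296, 371 and 391 CPM in FPI libraries 1 to 5. The lowest FPI library lay above the highest sham library, at a log2 fold change of 1.39 (SE 0.24) and an edgeR Benjamini-Hochberg adjusted p of 0.151. C4b has a near-identical copy, C4a, and reads may be shared with it. C3, the central component, measured 1.17, 6.97, 5.18, 3.32 and 2.26 CPM after sham and 12.1, 43.6, 16.2, 7.67 and 31.6 CPM after FPI. The C3 groups did not overlap, though FPI library 4 came close to sham library 2 (log2 fold change 2.53, SE 0.54, edgeR Benjamini-Hochberg adjusted p = 0.558). The C1q genes were near 0 in sham libraries, with C1qa at 0 to 0.909 CPM, and belong with the microglial genes below.

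**Figure D3:**
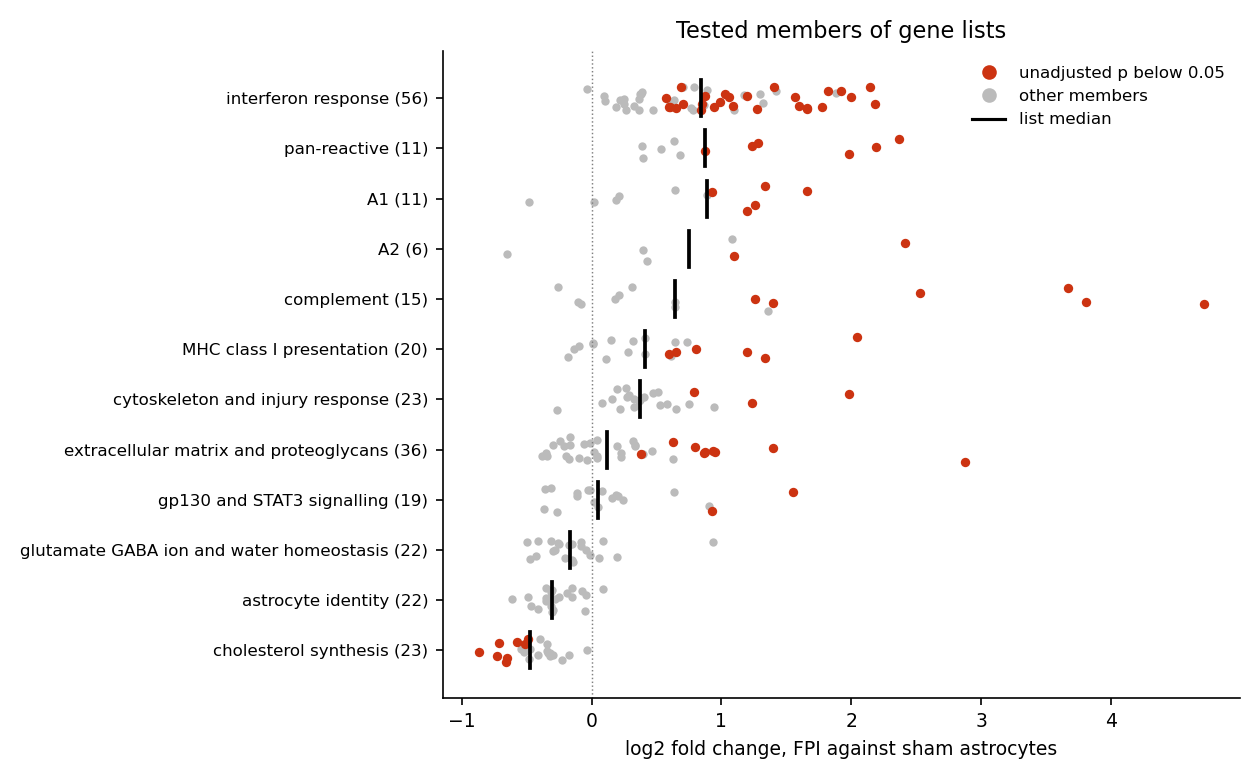
Log2 fold change (FPI against sham) of each tested member of the gene lists, with 1 point per gene, red at an unadjusted p below 0.05, and a line at the median of each list. All pan-reactive members and all interferon members but Trafd1 lie to the right of 0, with medians of 0.88 and 0.85, and all 23 cholesterol synthesis members lie to the left, with a median of -0.48.

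Signalling through gp130, the shared receptor of the interleukin 6 family, and Stat3 had 2 members that were higher at an unadjusted p below 0.05 and a median near 0. Socs3, the feedback inhibitor of this pathway, measured 2.08, 6.63, 4.36, 2.31 and 6.53 CPM after sham and 13.5, 10.6, 7.80, 10.2 and 22.5 CPM after FPI. Its groups did not overlap (log2 fold change 1.55, SE 0.40, edgeR Benjamini-Hochberg adjusted p = 0.999, DESeq2 0.0978). Socs3 was also microglia-abundant by the rule given at the end. The transcription factor gene Cebpd overlapped, at 7.23 to 16.5 CPM and 14.6 to 36 CPM. For Stat3 itself the log2 fold change was 0.19, for the receptor subunit genes Il6st and Lifr it was 0.20 and -0.31, and over the 19 tested members the median was 0.05.

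Of 36 tested genes of the extracellular matrix, 22 were positive and 9 were higher at an unadjusted p below 0.05, and the median of 0.12 was -0.016 without FPI library 5. Igfbp5, an insulin-like growth factor binding protein, measured 257, 230.3, 208, 128 and 201 CPM after sham and 409, 337, 397, 217 and 416 CPM after FPI. Only FPI library 4 fell within the sham range (log2 fold change 0.80, SE 0.23). Thbs4, a secreted thrombospondin that promotes synapses, measured 50.1 to 64.4 CPM and 65.8 to 90.5 CPM, groups that did not overlap, with a log2 fold change of 0.38. Sulf1, a heparan sulfatase, measured 7.54 to 16.1 CPM and 10.9 to 25.8 CPM, and Spp1, the matrix protein osteopontin, 5.85 to 12 CPM and 4.27 to 41.0 CPM. For matrix genes typical of astrocytes the log2 fold change was 0.04 for Ncan, -0.24 for Bcan and 0.02 for Tnc. Tnr and Vcan are also markers of oligodendrocyte precursor cells, and Tnr is given with these.

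Chemokine and cytokine genes were mostly too low to be tested, with 11 of 24 tested. Cxcl10, which attracts T cells and is interferon-inducible, measured 0 to 1.63 CPM after sham and 2.09 to 6.85 CPM after FPI (log2 fold change 2.19). Cxcl5, a neutrophil attractant, had a log2 fold change of 2.56, and Il18 one of -0.51. Ccl2, Ccl5, Il1a, Il1b, Il6 and Tnf did not pass the filter on low counts.

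The genes of cholesterol synthesis leaned lower after FPI. All 23 members of the list had a lower mean CPM, beside 50.8% of all genes with a negative fold change, and 8 were lower at an unadjusted p below 0.05, beside 0.75% of all genes. None was called by edgeR and none had groups apart. The median log2 fold change was -0.48, with -0.44 from libraries 1 to 3 and -0.38 from libraries 4 and 5. It stayed negative in all alternative analyses, from -0.64 to -0.36. The number of members lower at that p moved with single libraries. It was 16 without FPI library 1, 4 without FPI library 4, and 5 without FPI library 2, FPI library 3, sham library 2 or sham library 3.

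Among the early steps of the pathway, Hmgcs1 overlapped widely between the groups. This enzyme, which makes a precursor of mevalonate, measured 318, 282, 323, 201 and 212 CPM in sham libraries 1 to 5 and 352, 212, 195, 139 and 115 CPM in FPI libraries 1 to 5. FPI library 1 was the highest of all 10 (log2 fold change -0.40, SE 0.29). The sterol regulatory element TCACNCCAC, searched in the same way on both strands, was found before 1 of 17 list members with a promoter entry, Hmgcs1, and before 331 of 27025 genes (1.22%). It is shown in capitals because this element is the known site of Srebf2, the factor that drives the pathway.
Hmgcs1, chr13:119690199-119690237, + strand: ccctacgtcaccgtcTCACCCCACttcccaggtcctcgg

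Later steps included members lower at an unadjusted p below 0.05. Hsd17b7, a ketosteroid reductase, measured 38.4, 22.1, 41.7, 19.2 and 17.2 CPM after sham and 14.2, 18.9, 14.9, 14.7 and 13.3 CPM after FPI. FPI library 2 exceeded sham library 5, so the groups overlapped (log2 fold change -0.87, SE 0.26, edgeR Benjamini-Hochberg adjusted p = 0.999). For Msmo1, Sqle, Dhcr7 and Idi1 the log2 fold changes were -0.71, -0.66, -0.65 and -0.57. In sham libraries 4 and 5, in which the astrocyte identity sum was low (15106 and 21886 CPM, against 36467 to 45451 CPM in the others), the cholesterol genes summed to 1824 and 1920 CPM, against 2643 to 3413 CPM. The part of cell composition in the lower cholesterol genes was not tested. With the oligodendrocyte marker sum as a covariate the list median was -0.36.

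**Figure D4:**
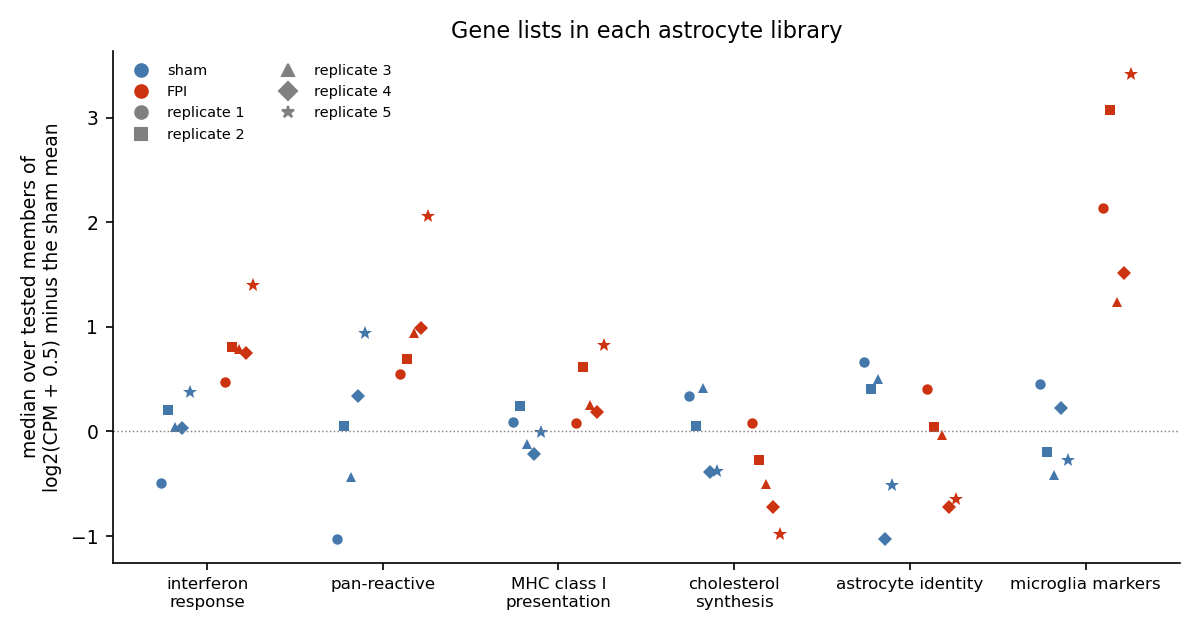
For each astrocyte library, the median over list members of the log2 CPM relative to the sham mean (log2 of CPM plus 0.5), with 1 point per library for each list. For the interferon list the FPI libraries range from 0.47 to 1.40 and the sham libraries from -0.49 to 0.38, so the groups are apart, and for cholesterol synthesis they overlap, at -0.98 to 0.08 and -0.38 to 0.41.

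Genes of astrocyte identity and homeostasis overlapped between the groups throughout. Of the 22 astrocyte identity genes 21 were negative, with a median log2 fold change of -0.31, 0 at an unadjusted p below 0.05 by edgeR, a median of -0.47 without FPI library 1 and -0.48 without sham library 4, and a median of 0.03 when libraries 4 and 5 were compared alone. With the oligodendrocyte covariate the median was -0.11. Aldh1l1, a folate enzyme used as an astrocyte marker, measured 391, 343, 406, 156 and 214 CPM after sham and 301, 264, 271, 171 and 178 CPM after FPI. The spread within the sham group was wider than the shift between the groups (log2 fold change -0.35, SE 0.28). The main glutamate transporter gene Slc1a2 measured 10966 ± 3840.4 and 10623 ± 4887 CPM (SD, n = 5 each), and the potassium channel gene Kcnj10 measured 542 ± 155 and 565 ± 188 CPM. The water channel gene Aqp4, at 918 ± 389 and 978 ± 368 CPM, had a log2 fold change of 0.09 that turned negative in some alternative analyses. Atp1b2, whose product carries the epitope of the sort, ranged from 793 to 2913 CPM and from 896 to 2558 CPM. Over the 22 genes of glutamate, GABA, ion and water homeostasis the median was -0.16 (-0.013 without sham library 1 and -0.41 without FPI library 1), and over 30 astrocyte transcription factor genes -0.17.

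All FPI libraries lay below all sham libraries for 26 of the genes tested (0.189%). Among those lower at an unadjusted p below 0.05 by edgeR were Chst12, Ccdc134, Pnpla8 and Rpl31-ps8. Rpl31-ps8 measured 2.31 to 3.38 CPM after sham and 0.527 to 1.51 CPM after FPI (log2 fold change -1.39, SE 0.42). Chst12, a chondroitin sulfotransferase, measured 20.7, 14.9, 17.7, 19.6 and 13.3 CPM after sham and 11.3, 10.4, 9.88, 12 and 8.19 CPM after FPI. Its highest FPI library was below its lowest sham library (log2 fold change -0.73, SE 0.19, edgeR Benjamini-Hochberg adjusted p = 0.999). Ccdc134, a secreted coiled-coil protein, measured 7.79 to 12.7 CPM after sham and 3.85 to 7.16 CPM after FPI (log2 fold change -0.93, SE 0.25). Pnpla8, a phospholipase, measured 50.02 to 64.8 CPM and 40.7 to 47.2 CPM (log2 fold change -0.42, SE 0.13).

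Genes abundant in microglia were higher in the FPI astrocyte libraries as a group, at very low levels. A gene was counted as microglia-abundant when its mean CPM over the 10 microglia libraries was at least 10 times its mean over the 10 astrocyte libraries. Of 309 such genes tested, 253 were positive (81.9%, beside 49.2% of all genes), and 42 were higher and 0 lower at an unadjusted p below 0.05 by edgeR (13.6%, beside 1.57%). They made up 19.4% of the 216 higher genes, and 50 of the 240 with a log2 fold change above 1. Of the 2734 astrocyte-abundant genes, 40 were higher and 16 lower at that p. Microglia-abundant genes that passed the filter only through their FPI values could not have come out lower. The counts for this class therefore describe it and are no test of it. Requiring at least 10 counts in every library left 5 of 16 microglia markers tested, and their median log2 fold change went from 3.15 to 0.58.

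The microglia marker list has 27 genes and each had a higher mean CPM after FPI. Summed, they gave 121 to 205 CPM in sham libraries and 195 to 424 CPM in FPI libraries, ranges that overlap slightly. Sall1 made up much of these sums and was similar in both groups, at a mean of 92.1 CPM after sham and 94.9 CPM after FPI. Cx3cr1, the fractalkine receptor, measured 0.520, 1.09, 1.56, 0.301 and 0.251 CPM in sham libraries 1 to 5 and 10.2, 11.8, 2.80, 3.14 and 11.1 CPM in FPI libraries 1 to 5. FPI libraries 3 and 4 were the lowest of their group and above all sham libraries (log2 fold change 3.34, SE 0.62, edgeR Benjamini-Hochberg adjusted p = 0.215). Mpeg1, a pore-forming protein of phagocytes, measured 0.252 to 1.11 CPM and 2.32 to 23.8 CPM, and C1qa 0 to 0.909 CPM and 2.32 to 21.7 CPM. Tmem119, a defining marker, was at a mean of 0.817 CPM after sham and 1.70 CPM after FPI, below the filter.

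The level of these markers in FPI astrocyte libraries was a median of 0.422% of their level in FPI microglia (range 0.0773% to 8.95% over the 27 genes), and the sham value was 0.0471% of sham microglia (0% to 7.15%). Taken as the median ratio of 6 defining markers in each library, the share was 0.0297% to 0.0784% in sham libraries and 0.142% to 0.580% in FPI libraries, highest in FPI library 5. Multiplying this share by a gene's level in microglia gives the difference that microglial RNA in that proportion would bring. For Ctss the measured difference between the group means was 25 CPM and this product was 17.9 CPM, and for Cx3cr1 they were 7.01 and 7.69 CPM. For C1qa they were 9.26 and 4.71 CPM. After such counts were subtracted, 17 of the 289 microglia-abundant genes still tested were higher at an unadjusted p below 0.05, and 0 genes were called by edgeR, with 194 of all genes higher at that p.

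Reactive and interferon genes differed in this measure from the microglia markers. For Gfap the difference between the means was 631 CPM and the product 0.136 CPM, for C4b 191 and 0.541 CPM, for Oasl2 18.8 and 0.230 CPM, and for C3 18.3 and 0.195 CPM. Of the 27 interferon genes higher at an unadjusted p below 0.05, 26 exceeded the product more than 10 times, the smallest ratio was 8.06 and the median was 58.8. Of the 12 microglia markers higher at that p, 0 exceeded it 10 times and 10 were at most 2 times it. Of all 216 higher genes, 187 exceeded it more than 10 times. The microglia-abundant genes Psmb8, Nlrc5, B2m, Socs3, H2-T23 and Fkbp5 were at 16.0, 26.0, 6.53, 26.4, 20.2 and 11.7 times the product. With the summed microglia markers as a covariate, the interferon median was 0.74 and 7 members were higher at that p. Of the 20 monocyte and macrophage markers 5 were tested, all 5 were positive and 3 were higher at that p, with ratios from 9.99 upward and a median ratio of 31.9. Lyz2, the lysozyme of macrophages and monocytes, had a difference of 8.89 CPM against a product of 0.890 CPM, and measured 0.104 to 1.43 CPM after sham and 3.41 to 19.4 CPM after FPI.

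**Figure D5:**
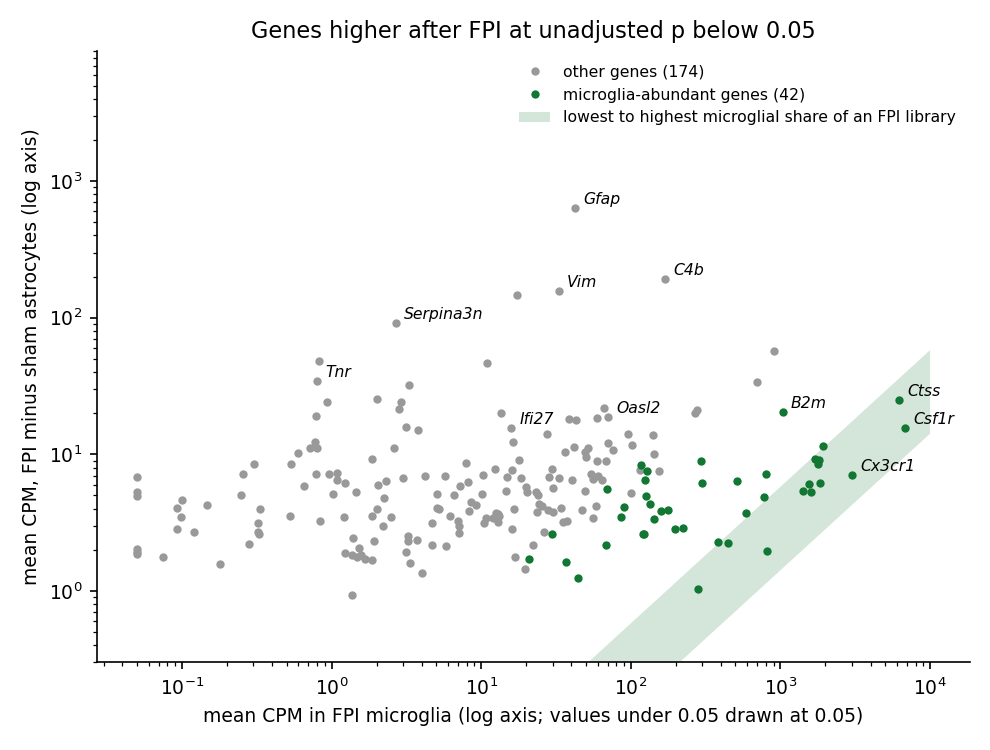
Difference in mean CPM between FPI and sham astrocytes (vertical, log axis) against mean CPM in FPI microglia (horizontal, log axis), with 1 point per gene higher at an unadjusted p below 0.05. The band spans the lowest to the highest microglial share of an FPI library, 0.142% to 0.580%. Ctss and Cx3cr1 lie in the band, and Gfap, at 631 CPM, lies far above it.

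Markers of oligodendrocyte precursor cells and of dividing cells also leaned higher, with the highest values in FPI library 5. Gpr17, a receptor of cells committed to the oligodendrocyte lineage, measured 2.21, 0.587, 2.80, 4.82 and 4.27 CPM in sham libraries 1 to 5 and 8.85, 20.1, 8.41, 18.4 and 203 CPM in FPI libraries 1 to 5. Every FPI library was above the sham group and FPI library 5 was far above the rest, and without it the log2 fold change went from 4.14 to 2.23. Tnr, the matrix protein tenascin R, showed the same order with 126 CPM in FPI library 5 and 15.9 to 24.5 CPM in the other FPI libraries, against 3.36 to 10.3 CPM after sham. Without that library its log2 fold change went from 2.88 to 1.75. Pdgfra, the growth factor receptor of precursors, overlapped, with 4.68 to 24.9 CPM after sham and 16.2 to 97.8 CPM after FPI. Of 18 precursor markers tested 15 were positive and 5 were higher at an unadjusted p below 0.05, with a median log2 fold change of 0.41, while the lineage factor genes Olig1 and Olig2 were at 0.19 and -0.02.

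Of 18 tested proliferation genes 16 were positive, with a median of 0.57 (0.36 without FPI library 5 and 0.90 without sham library 5), and Kif11, Cenpf, Tpx2 and Mcm5 were higher at an unadjusted p below 0.05. The mitotic kinesin gene Kif11 measured 1.30 to 5.04 CPM after sham and 3.79 to 15.4 CPM after FPI, highest in FPI library 5. All 17 mural and fibroblast markers were positive, with a median of 0.46. That direction rested on FPI library 5, since the median without it was -0.12, and it was -0.14 from libraries 1 to 3 against 0.58 from libraries 4 and 5. The collagen gene Col1a1 measured 22.6, 41.3, 31.7, 22.8 and 55.7 CPM after sham and 48.9, 53.2, 81.6, 61 and 167 CPM after FPI. Whether these cells account for the matrix genes above was not tested. Markers of oligodendrocytes, neurons and endothelium had medians of 0.02, 0.08 and 0.10, with 0 members at that p in the edgeR fit, and each of these medians changed sign when single libraries were left out. For oligodendrocyte markers the median difference was 1.25 from libraries 1 to 3 and -1.03 from libraries 4 and 5, and leaving out 1 library gave -0.25 to 0.66, the highest without sham library 4. For endothelial markers the difference was 0.76 from libraries 1 to 3 and -0.02 from libraries 4 and 5.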

How the data were processed

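The files hold read counts per gene, whole numbers that the authors deposited for each library and in a combined table. Per the labels, RNA was prepared with the Clontech SMARTer stranded total RNA kit for pico input and sequenced in pairs on a NovaSeq, and the submitters' processing notes name bcl2fastq, HISAT2 2.1.0, featureCounts and the builds GRCm38.p6 and mm10. The study's methods give the annotation of its reference as GENCODE M19. The strand setting of the counting is not given in the sources used here, so overlapping and antisense genes may share counts. Nuclear and mitochondrial ribosomal RNA stayed in the counts, which lowers the depth left for other genes.

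The gene symbols of the table were matched to GENCODE M21 (37693 of 39017 identifiers, 99.8% of the counts). The members and lists were chosen with earlier results of these data known. Genes were filtered with filterByExpr at its default settings on the 10 astrocyte libraries, scaled by TMM and tested with the quasi-likelihood test of edgeR 4.0.16 in R 4.3.3, two-sided, with Benjamini-Hochberg adjustment over all 13741 genes. Dispersion between libraries corresponded to a common coefficient of variation of 0.391. Calls needed an adjusted p below 0.1 and a log2 fold change beyond 0.6 in either direction, and lists were described by counts and medians without a test. Fold changes are those of the fit. Levels set beside microglia are CPM scaled over all 20 libraries. Named genes were the called gene, the genes of smallest p in each direction, up to 4 members of smallest p of each list with members a list is known for, genes the study names for astrocytes, and those of largest CPM difference. In counts simulated for this comparison over 13741 genes, 25 of 100 genes changed by 1 on the log2 scale and 70 of 100 changed by 2 were called, with 3 false calls.

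Alternatives were DESeq2 1.42.0, limma 3.58.1 with voom, other scalings and filters, marker sums as covariates, subtraction of microglial counts, a replicate block and leaving out each library. The subtraction by 6 defining markers and the oligodendrocyte and mural covariates were chosen after seeing the data. Microglia libraries served only as a reference. Values of some single members of the lists are not reported here.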

Additional observations from a re-analysis of the deposited data

Results flagged for a closer look

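The highest or lowest library of a group of 5 was compared with the other 4 for 68 genes named here. It lay far from them for 15 of 136 gene and group pairs. The threshold gives about 1 in 20 for independent, normally distributed values. These genes share libraries and were partly chosen by their values, so that rate does not apply and the count was not tested against chance. FPI library 5 was the highest in 9 of the 15. It measured 48.8 CPM for Oasl2 (next library 25.9), 19.3 for Usp18 (6.85), 35.5 for Irgm1 (22.7), 22.8 for Irf7 (7.27), 126 for Tnr (24.5), 203 for Gpr17 (20.1), 97.8 for Pdgfra (36.3), 167 for Col1a1 (81.6) and 15.4 for Kif11 (7.07). In the sham group, library 5 stood apart for Gfap with 406 CPM (next 201) and for Tnr with 10.3 CPM (4.82), and library 1 for Kcnj10 with 812 CPM (522). FPI library 3 measured 18.2 CPM for Aspg (5.70), FPI library 2 measured 18.9 CPM for Hsd17b7 (14.9), and FPI library 4 was the lowest for Mki67 with 4.302 CPM (next 13.97).

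For 3 genes the groups leaned opposite ways in astrocytes and microglia, and the difference between the cell types was not tested. The FPI mean minus the sham mean was 7.01 CPM for Cx3cr1 in astrocytes and -896 CPM in microglia, 24.3 and -2.08 CPM for Pdgfra, and -71.2 and 3.18 CPM for Aldh1l1.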

How the results depend on the processing

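The call rested on 1 gene and moved with the method. Genes called higher after FPI numbered 39 with DESeq2, 52 (with 1 lower) in a fit of all 20 libraries, 9 with every gene with a count tested, 3 with limma voom and sample quality weights, 6 with a term for libraries 4 and 5, 8 with the mural and 10 with the oligodendrocyte marker covariate. They numbered 0 with FPI libraries 2 and 5 summed, with at least 10 counts required in every library, with the microglia or the precursor covariate, with either subtraction of microglial counts, with robust empirical Bayes and at an adjusted p below 0.05. Leaving out 1 library at a time gave 0 to 3 called higher, 146 to 319 higher and 80 to 261 lower at an unadjusted p below 0.05, the most without sham library 4 (261 lower) and FPI library 1 (211 lower). Genes higher and lower at that p numbered 429 and 200 with DESeq2, 363 and 174 with all 20 libraries, 567 and 347 with every gene tested and 366 and 233 with voom. Lower genes numbered 215 with the mural covariate and 168 with the term for libraries 4 and 5.

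The deviations of same-numbered sham and FPI libraries had correlations of 0.45, -0.009, 0.245, 0.45 and 0.348, all positive except -0.009. The main fit did not take the numbers as pairs, and whether same-numbered libraries share an effect was not tested. With a replicate block, 11 genes were called higher, and 359 were higher and 222 lower at an unadjusted p below 0.05. The called genes with the replicate block included Gfap, C4b, Serpina3n, Oasl2, C3 and Vim.

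The microglia marker median of 3.15, over 16 tested markers, was 0.93 over 16 with the microglia covariate. It was 0.58 over the 5 markers left with at least 10 counts in every library. After subtraction with all or with the 6 defining markers it was 0.11 and 0.23, over only 4 and 5 markers still tested. Medians over fewer markers do not show how the fold changes of the dropped markers moved. With the microglia covariate the log2 fold change turned to -0.027 for Tpx2, -0.10 for Gpnmb, -0.062 for Csf1r and -0.32 for Aqp4, and Aqp4 was at -0.062 with voom. Without 1 library at a time Aqp4 ranged from -0.13 to 0.24 and Atp1b2 from -0.40 to 0.070. The cause of these moves was not tested. In total, 2356 of 2464 gene and setting pairs kept direction and side of the threshold, 87 were stronger, 12 weaker and 9 reversed. At this spread, changes of 1 on the log2 scale would mostly go uncalled.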

Other observations

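Other gene groups had medians near 0. Of 26 genes of hypoxia and glycolysis, 9 had a positive fold change and the median was -0.13, of 17 tested genes of the endoplasmic reticulum stress response 5 were positive (median -0.11), and of 21 metallothionein and antioxidant genes 9 were positive (median -0.02), each with 0 genes at an unadjusted p below 0.05 in the edgeR fit. Among 24 genes of phagocytosis and the lysosome the median was 0.01, and Gpnmb, a glycoprotein of phagocytic cells, was higher with a log2 fold change of 1.71 (SE 0.54). Immediate early genes, which cell dissociation induces, were positive in 19 of 23 cases with a median of 0.14 (0.051 without FPI library 5). Of these Fos measured 19.6 to 44.1 CPM after sham and 25.1 to 96.9 CPM after FPI, with the highest value in FPI library 5.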
